A study of Homo sapiens with 10 samples.

Results

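The proteasome is the protease complex that degrades ubiquitin-tagged proteins, and its subunits and helper proteins are encoded by the PSM genes. The genes described here are all 48 whose symbol is PSMA, PSMB, PSMC, PSMD, PSME, PSMF or PSMG followed by a number, out of 59386 genes in the count tables; pseudogenes, whose symbols carry a further P, are not among them. By role they fall into 7 alpha-ring and 7 beta-ring subunits of the barrel-shaped core particle, 6 ATPase and 11 other subunits of the regulatory particle that caps the core, 3 chaperones of the regulatory particle's base, 4 assembly chaperones of the core, 2 activators that do not depend on interferon, 1 regulator, 2 core subunits restricted to testis or thymus, and 5 interferon-inducible genes. The first 4 of these classes, 31 genes in all, are called constitutive below.

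In most cells the active sites of the core are carried by PSMB5, PSMB6 and PSMB7. Interferon induces PSMB8, PSMB9 and PSMB10, which take the places of PSMB5, PSMB6 and PSMB7 in newly made cores and give the immunoproteasome, a form known for producing peptides that are loaded onto MHC class I molecules. PSME1 and PSME2, also interferon-inducible, encode the subunits of PA28, a ring that opens the core without ATP or ubiquitin.

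RNA was sequenced from VCaP cells, an established prostate cancer line, as 10 libraries of polyadenylated RNA: 2 control libraries and 2 for each of 4 siRNAs. Transfected cells received 30 pmol of siRNA A or siRNA B against SMARCA4, the ATPase of SWI/SNF chromatin remodelers, or siRNA A or siRNA C against SMARCA1, an ATPase of ISWI remodelers, and were harvested 72 h later. The labels do not say what the control cells received, nor whether the libraries of a group came from separate cultures, so p-values measure only the spread between these libraries. Each of the 2 knockdown groups therefore holds 4 libraries, 2 per siRNA, and all comparisons with control share the same 2 control libraries.

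Library totals ran from 23898545 to 34667965 counts, so that 3 counts correspond to 0.0865 to 0.126 CPM, the unit of level used here, which scales a gene's counts to a common library total. SMARCA4 RNA was at 7.87% of control in the SMARCA4 knockdown and SMARCA1 RNA at 8.78% of control in the SMARCA1 knockdown, whereas SMARCA1 RNA was at 211% of control in the SMARCA4 knockdown. All 10 markers listed for prostate cancer epithelium were detected in every group. Of 8 immune-cell markers, CD2 was at 0 in all libraries, PTPRC, which marks leukocytes, reached 0.0307 CPM in 1 library and was at 0 in the others, and 6 of the 8 stayed under 1 CPM throughout. The summed immune-marker level was 2.34 to 2.41 CPM in control, 2.49 to 15.8 CPM in the SMARCA4 knockdown and 9.22 to 22.8 CPM in the SMARCA1 knockdown; most of its spread was LYZ, which ranged from 0.527 to 21.7 CPM over the libraries. CD14, the other immune marker above 1 CPM, went the other way, with 1.55 and 1.85 CPM in control and 0.550 to 1.21 CPM in the knockdown libraries. The 4 stroma markers summed to 4.85 to 11.6 CPM in control, 7.57 to 14.8 CPM in the SMARCA4 knockdown and 8.65 to 18.4 CPM in the SMARCA1 knockdown, most of it COL1A1, at 4.14 and 7.23 CPM in control and up to 17.8 CPM in the knockdowns. The part of these markers in the results was not tested.

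PSMA8, the testis subunit, had 0 counts in every library, and PSMB11, the thymus subunit, had 1 count in a single library; these 2 genes could not be tested. The other 46 members passed the filter on low counts and were tested together with all 16899 genes that passed it, with edgeR's quasi-likelihood test. A gene is called higher or lower where its Benjamini-Hochberg adjusted p over those genes was below 0.05. CPM values are scaled by edgeR's TMM factors, and values per kilobase divide by the exon length given in the count tables.

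The 5 interferon-inducible genes were higher than in control in both knockdowns and with every siRNA. As it is not known what the control cells received, loss of the target and transfection itself cannot be told apart here. In RNA from whole cultures, more cells that express a gene and more RNA per cell cannot be told apart. In control their levels differed widely: PSME1 was at 55.2 ± 0.919 CPM per kb (SD, n = 2), PSME2 at 18.7 ± 0.642, PSMB8 at 3.44 ± 0.208, PSMB9 at 0.738 ± 0.105 and PSMB10 at 0.720 ± 0.145. PSMB9 and PSMB10 did not differ beyond their spread in that order.

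PSMB9 (chr6:32844136-32859851, plus strand, hg38) encodes the subunit that replaces PSMB6. The controls held 2.22 and 2.71 CPM, against 60.7 and 24.0 CPM with SMARCA4 siRNA A, 106 and 79.4 CPM with SMARCA4 siRNA B, 58.5 and 39.1 CPM with SMARCA1 siRNA A, and 95.2 and 86.4 CPM with SMARCA1 siRNA C. Every knockdown library was above both controls, and the lowest was SMARCA4 siRNA A replicate 2. The log2 fold change was 4.66 ± 0.422 (SE, adjusted p = 2.9e-05) in the SMARCA4 knockdown and 4.75 ± 0.423 (adjusted p = 4.6e-05) in the SMARCA1 knockdown.

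PSMB8 (chr6:32840717-32844679, minus strand), which replaces PSMB5, lies beside PSMB9 in the MHC region. It was at 11.5 and 12.5 CPM in control, 110 and 51.1 CPM with SMARCA4 siRNA A, 185 and 148 CPM with SMARCA4 siRNA B, 114 and 75.2 CPM with SMARCA1 siRNA A, and 161 and 157 CPM with SMARCA1 siRNA C. The control and knockdown libraries did not overlap, and SMARCA4 siRNA A replicate 2 was again the lowest of the knockdown libraries. The fold over control was 9.66 in the SMARCA4 knockdown (log2 3.27 ± 0.318 SE, adjusted p = 4.3e-05) and 10.2 in the SMARCA1 knockdown (adjusted p = 6.1e-05).

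PSMB10 (chr16:67934506-67936864, minus strand), which replaces PSMB7, had the fewest reads of the 5 genes, with 24 and 36 counts in control and 182 to 675 counts in the knockdown libraries. Its level was 1.00 and 1.34 CPM in control, 11.9 and 5.72 CPM with SMARCA4 siRNA A, 18.4 and 14.1 CPM with SMARCA4 siRNA B, 16.1 and 12.4 CPM with SMARCA1 siRNA A, and 21.6 and 19.8 CPM with SMARCA1 siRNA C. All 8 knockdown libraries were above both controls. The log2 fold change was 3.34 ± 0.344 (SE, adjusted p = 6.1e-05) in the SMARCA4 knockdown and 3.86 ± 0.345 (adjusted p = 4.6e-05) in the SMARCA1 knockdown. Exons of a gene on the same strand, CTC-479C5.12, share 39.4% of PSMB10's exon bases, and reads in that stretch may not have been counted, so that its level relative to other genes may be understated.

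PSME1 (chr14:24136163-24138967, plus strand) and PSME2 (chr14:24143362-24147570, minus strand) lie close together and encode the alpha and beta subunits of PA28. PSME1 was at 96.9 and 99.2 CPM in control, 221 and 152 CPM with SMARCA4 siRNA A, 314 and 262 CPM with SMARCA4 siRNA B, 366 and 268 CPM with SMARCA1 siRNA A, and 408 and 398 CPM with SMARCA1 siRNA C. PSME2 was at 65.5 and 68.7 CPM in control, 256 and 162 CPM with SMARCA4 siRNA A, 368 and 310 CPM with SMARCA4 siRNA B, 285 and 214 CPM with SMARCA1 siRNA A, and 326 and 316 CPM with SMARCA1 siRNA C. For both genes the control libraries lay below all knockdown libraries. PSME1 rose 2.36-fold in the SMARCA4 knockdown (adjusted p = 0.00037) and 3.65-fold in the SMARCA1 knockdown (adjusted p = 6.8e-05), and PSME2 rose 3.96-fold (adjusted p = 4.7e-05) and 4.22-fold (adjusted p = 6.1e-05). In the mean over its 4 libraries, PSME1 had the highest level per kb of all 48 genes in each knockdown. In control that place was held by the alpha-ring subunit PSMA7. With siRNA A alone, mean PSMA7 was still above mean PSME1, at 113.3 against 105 CPM per kb for SMARCA4 and 181.1 against 178.7 for SMARCA1.

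**Figure D1:**
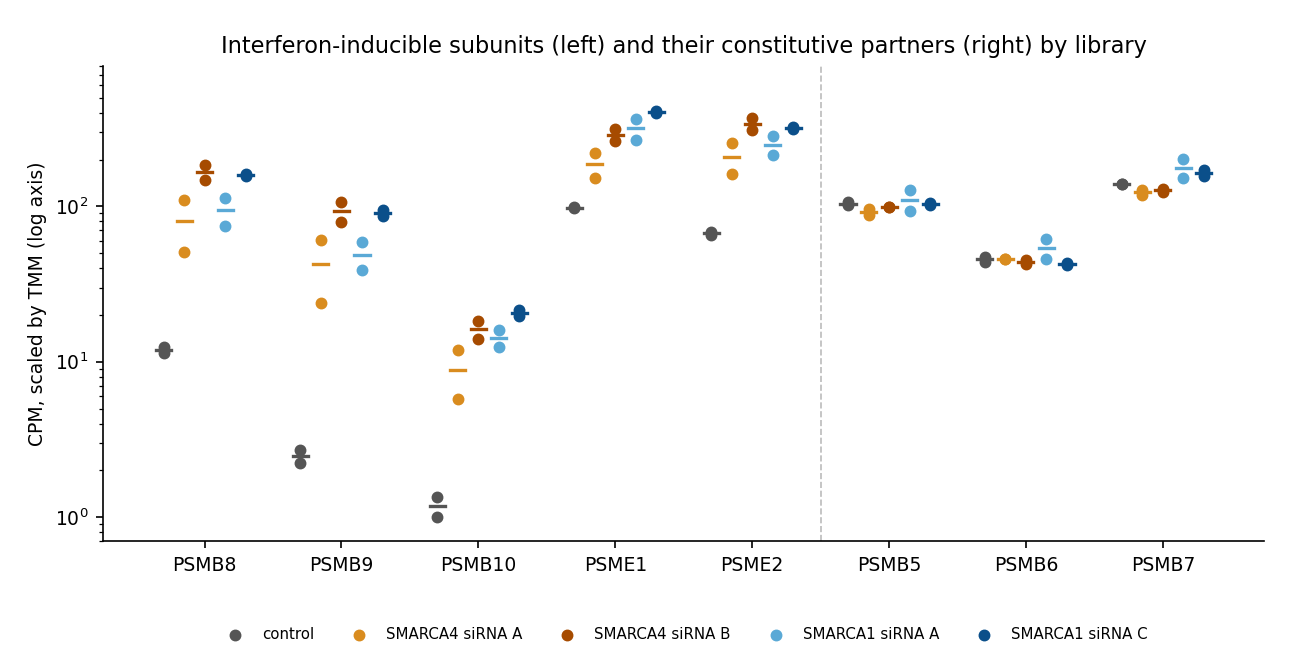
CPM of the 5 interferon-inducible genes and of PSMB5, PSMB6 and PSMB7 in each of the 10 libraries, on a log axis; each point is a library, each short bar a mean of 2 libraries, and color marks the group. The gray control points lie below all colored points for the 5 genes on the left, whereas for PSMB5 and PSMB6 on the right control and SMARCA1-knockdown libraries overlap.

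Few genes rose further than the 3 inducible active-site subunits: 1.09% to 1.86% of the 16899 tested genes had a higher log2 fold change than PSMB8, PSMB9 or PSMB10 in the SMARCA4 knockdown, and 1.36% to 2.28% in the SMARCA1 knockdown. Their constitutive counterparts did not pass the test in either knockdown. PSMB5, which carries the chymotrypsin-like activity, was at 102 and 106 CPM in control, 88.0, 95.9, 98.9 and 98.6 CPM in the SMARCA4 knockdown, and 127, 93.6, 105 and 102 CPM in the SMARCA1 knockdown. It had a log2 fold change of -0.13 (95% interval -0.39 to 0.13) in the SMARCA4 knockdown and 0.03 (-0.24 to 0.30) in the SMARCA1 knockdown. In both PSMB5 and PSMB6, SMARCA1 siRNA A replicate 1 was the highest library. PSMB6, the caspase-like subunit, was at 43.8 and 47.4 CPM in control, 46.0, 45.6, 45.2 and 42.8 CPM in the SMARCA4 knockdown, and 61.7, 45.5, 43.5 and 41.9 CPM in the SMARCA1 knockdown, with log2 fold changes of -0.02 (-0.30 to 0.25) and 0.07 (-0.20 to 0.34). PSMB7, the trypsin-like subunit, was at 140.0 and 139.8 CPM in control, 119, 127, 130.0 and 124 CPM in the SMARCA4 knockdown, and 202, 152, 171 and 156 CPM in the SMARCA1 knockdown. Its libraries stood apart between control and each knockdown, and its log2 fold change was -0.16 (-0.43 to 0.10) and 0.28 (0.01 to 0.55, adjusted p = 0.077; called as higher without SMARCA1 siRNA A replicate 2). These intervals leave room for changes of about the size called in other constitutive subunits, and none reaches the size seen for the inducible genes.

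Within each library the summed level per kb of PSMB8, PSMB9 and PSMB10 was set against that of PSMB5, PSMB6 and PSMB7. This ratio was 0.0262 and 0.0291 in control, 0.368 and 0.154 with SMARCA4 siRNA A, 0.574 and 0.461 with SMARCA4 siRNA B, 0.253 and 0.232 with SMARCA1 siRNA A, and 0.456 and 0.457 with SMARCA1 siRNA C. All 8 knockdown libraries were above the controls, and the mean log2 ratio exceeded that of control by 3.67 in the SMARCA4 knockdown and by 3.59 in the SMARCA1 knockdown. The 3 replacements did not reach the same proportion. The PSMB9 to PSMB6 ratio was 0.228 to 1.02 over the knockdown libraries against 0.0219 and 0.0248 in control, and PSMB8 to PSMB5 was 0.237 to 0.833 against 0.0498 and 0.0524. The first was above the second in each knockdown library except SMARCA4 siRNA A replicate 2, and below it in both controls. PSMB10 stayed far below PSMB7, at 0.0494 to 0.156 against 0.00788 and 0.0105, with the shared exon of PSMB10 as a limit on these levels. The ratios are of RNA, and subunits in assembled proteasomes were not measured.

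**Figure D2:**
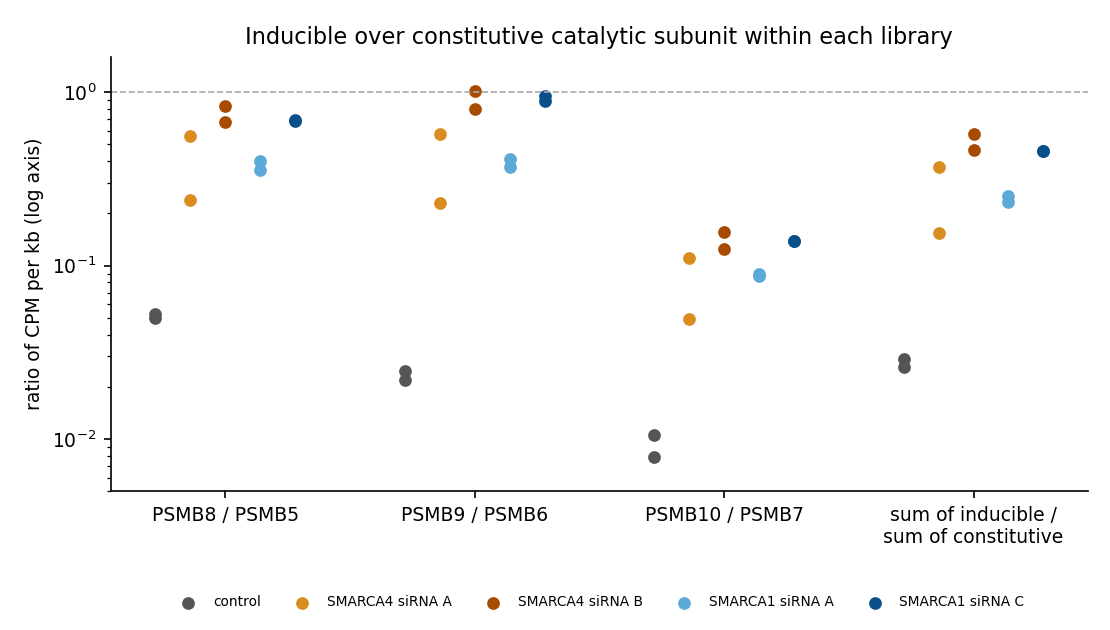
Ratio of each inducible active-site subunit to the constitutive subunit it replaces, and of the 2 sums, from CPM per kb within each of the 10 libraries on a log axis; each point is a library and the dashed line marks equal levels. Control points lie lowest in all 4 columns, and only PSMB9 to PSMB6 in 1 library, SMARCA4 siRNA B replicate 1, passes the dashed line, at 1.02.

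The ring subunits of PA28 did not rise in equal measure. The PSME2 to PSME1 ratio of levels per kb was 0.335 and 0.344 in control, 0.527 to 0.588 over the 4 SMARCA4-knockdown libraries and 0.386 to 0.396 over the 4 SMARCA1-knockdown libraries, so that the groups did not overlap. Against PSME3, which encodes the related nuclear activator that is not interferon-inducible, the sum of PSME1 and PSME2 was 1.81-fold and 2.02-fold in control and 3.62-fold to 8.25-fold in the knockdown libraries. Together the 5 inducible genes took 0.0177% (exact Clopper-Pearson 95% interval 0.0172% to 0.0182%) and 0.0187% (0.0182% to 0.0192%) of counts in control and 0.0402% (0.0395% to 0.0410%) to 0.0984% (0.0974% to 0.0995%) in the knockdowns, where the intervals cover counting error only.

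The promoters of the 5 genes were read from the RefSeq table for GRCh38.p14, which gives 250 bases before and 50 after a transcript start and holds 42 of the 48 genes; PSMA7, PSMB1, PSMB6, PSMB7, PSMD4 and PSMG3 had no entry. The core of the interferon-stimulated response element (ISRE), an element bound by IRF family factors, was searched as GAAANNGAAA on both strands. At least 1 window of 4 of the 5 inducible genes held it, namely PSMB8, PSMB10, PSME1 and PSME2, as did 2 of 26 constitutive subunits (PSMA4 and PSMB4), 1 of the 11 other members (PSMG4) and 4.38% of the 27305 genes in the table. The windows below are shown because all 4 inducible genes hold the same 10 bases, on one strand or the other. Each is 30 bases on the gene's strand, 5′ to 3′, with the match in capitals.
PSMB8, chr6:32844032-32844061, minus strand: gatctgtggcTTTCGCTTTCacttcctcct
PSMB10, chr16:67936852-67936881, minus strand: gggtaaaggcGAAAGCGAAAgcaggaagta
PSME1, chr14:24136189-24136218, plus strand: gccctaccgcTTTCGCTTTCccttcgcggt
PSME2, chr14:24146619-24146648, minus strand: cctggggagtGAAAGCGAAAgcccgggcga
PSMG4, chr6:3258904-3258933, plus strand: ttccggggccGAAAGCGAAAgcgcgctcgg
PSMB4, chr1:151399495-151399524, plus strand: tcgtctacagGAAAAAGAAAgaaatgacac
PSMA4, chr15:78540155-78540184, plus strand: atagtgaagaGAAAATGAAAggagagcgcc

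The match lay 28 to 19 bases before the start in PSME2, 21 to 12 bases before it in PSMB10, across the second of 2 listed starts in PSMB8 (from base -4 to base 6) and 6 to 15 bases after the start in PSME1. The exact string GAAAGCGAAA, counted on both strands after the matches had been seen, occurred in 34 genes of the table, or 0.125%. PSMG4, which encodes an assembly chaperone, also carries it and had a log2 fold change of -0.51 in the SMARCA4 knockdown (adjusted p = 0.042) and -0.07 in the SMARCA1 knockdown (adjusted p = 0.78), so that the string was present in a member that did not rise. PSMB4, with a different match, had -0.04 and 0.23, and neither passed the test. PSMA4 rose by 0.49 on the log2 scale in the SMARCA1 knockdown and had 0.25 in the SMARCA4 knockdown (95% interval -0.04 to 0.54), and the difference between knockdowns did not pass the test (adjusted p = 0.11).

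PSMB9 had no match in its window. Its 250 bases before the start, at chr6:32853942-32854191 on the plus strand, are shown as the exception among the inducible genes and carry no capitals because neither GAAANNGAAA nor TTCNNNGAA occurs in them.
PSMB9: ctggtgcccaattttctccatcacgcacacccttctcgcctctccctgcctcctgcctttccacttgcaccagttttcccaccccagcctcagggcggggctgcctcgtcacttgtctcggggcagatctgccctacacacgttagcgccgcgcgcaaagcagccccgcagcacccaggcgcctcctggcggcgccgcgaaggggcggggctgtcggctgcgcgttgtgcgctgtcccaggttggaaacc
The next gene, TAP1, which encodes a subunit of the transporter that carries proteasome-made peptides into the endoplasmic reticulum, is transcribed in the opposite direction from a start 488 bases away. The RefSeq window of that TAP1 start holds 2 overlapping matches, 354 to 369 bases before the PSMB9 start and thus outside the PSMB9 window, and 1 of them is the same string on the other strand. They are shown in capitals in 36 bases at chr6:32853813-32853848, on the TAP1 (minus) strand.
TAP1: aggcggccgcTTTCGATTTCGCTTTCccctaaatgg

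The gamma-activated site, an element of genes that respond to interferon gamma, was searched as TTCNNNGAA, which reads the same on both strands. PSMB8 was the 1 inducible gene of 5 with a match, 65 to 57 bases before its second start, against 5 of 26 constitutive subunits, 2 of 11 other members and 9.38% of all genes. PSMB8's 250 bases before that start, at chr6:32844048-32844297 on the minus strand, are shown because both motifs fall there: capitals mark the gamma-activated site and, at the end, the 4 bases of the ISRE match that precede the start.
PSMB8: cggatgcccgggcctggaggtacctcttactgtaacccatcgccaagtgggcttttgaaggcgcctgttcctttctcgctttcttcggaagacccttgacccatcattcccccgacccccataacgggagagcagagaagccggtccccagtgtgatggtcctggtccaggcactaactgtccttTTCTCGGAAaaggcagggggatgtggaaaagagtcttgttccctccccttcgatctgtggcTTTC
The core of the antioxidant response element, TGACNNNGC, through which NFE2L1 is known to raise proteasome genes, was found in 3 of 5 inducible, 7 of 26 constitutive and 5 of 11 other members and in 16.1% of all genes, and the E-box CACGTG in 0, 1 and 2 of them and in 8.77%. In the members no match of 1 motif overlapped a match of another. A match describes letters in a window and is not evidence of binding, which was not measured in these libraries.

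In the SMARCA4 knockdown, 15 of the 46 tested members passed the test, 8 of them higher against a background of 22.8% of all tested genes called higher, and 7 lower against 22.3%. Beside the 5 inducible genes, the higher ones were PSMA3, PSMC2 and PSMD5. The median log2 fold change of the 31 constitutive subunits was 0.03, that of the 5 inducible genes 3.27, and that of all 16899 genes 0.002. Of the constitutive subunits 2 were higher and 4 lower, a smaller share in each direction than among all genes.

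In the SMARCA1 knockdown, 21 members passed the test, all higher; 23.8% of all tested genes were called higher and 23.0% lower. No member was called lower by edgeR in the main fit or by DESeq2, and 2 (PSMD5 and PSMD6) were lower at an unadjusted p below 0.05. Some alternative fits called PSMD5, PSMD6, PSMD12 or PSME4 lower. With SMARCA1 siRNA A alone against control, 1 member, a chaperone of the regulatory particle's base, was called lower. The higher ones comprised the 5 inducible genes, 15 of the 31 constitutive subunits and the assembly chaperone PSMG3. The median log2 fold change of the constitutive subunits was 0.29 and that of all genes -0.004. The count depended on single libraries: it was 32 without SMARCA1 siRNA A replicate 2, 12 without control replicate 1 and 10 without control replicate 2.

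**Figure D3:**
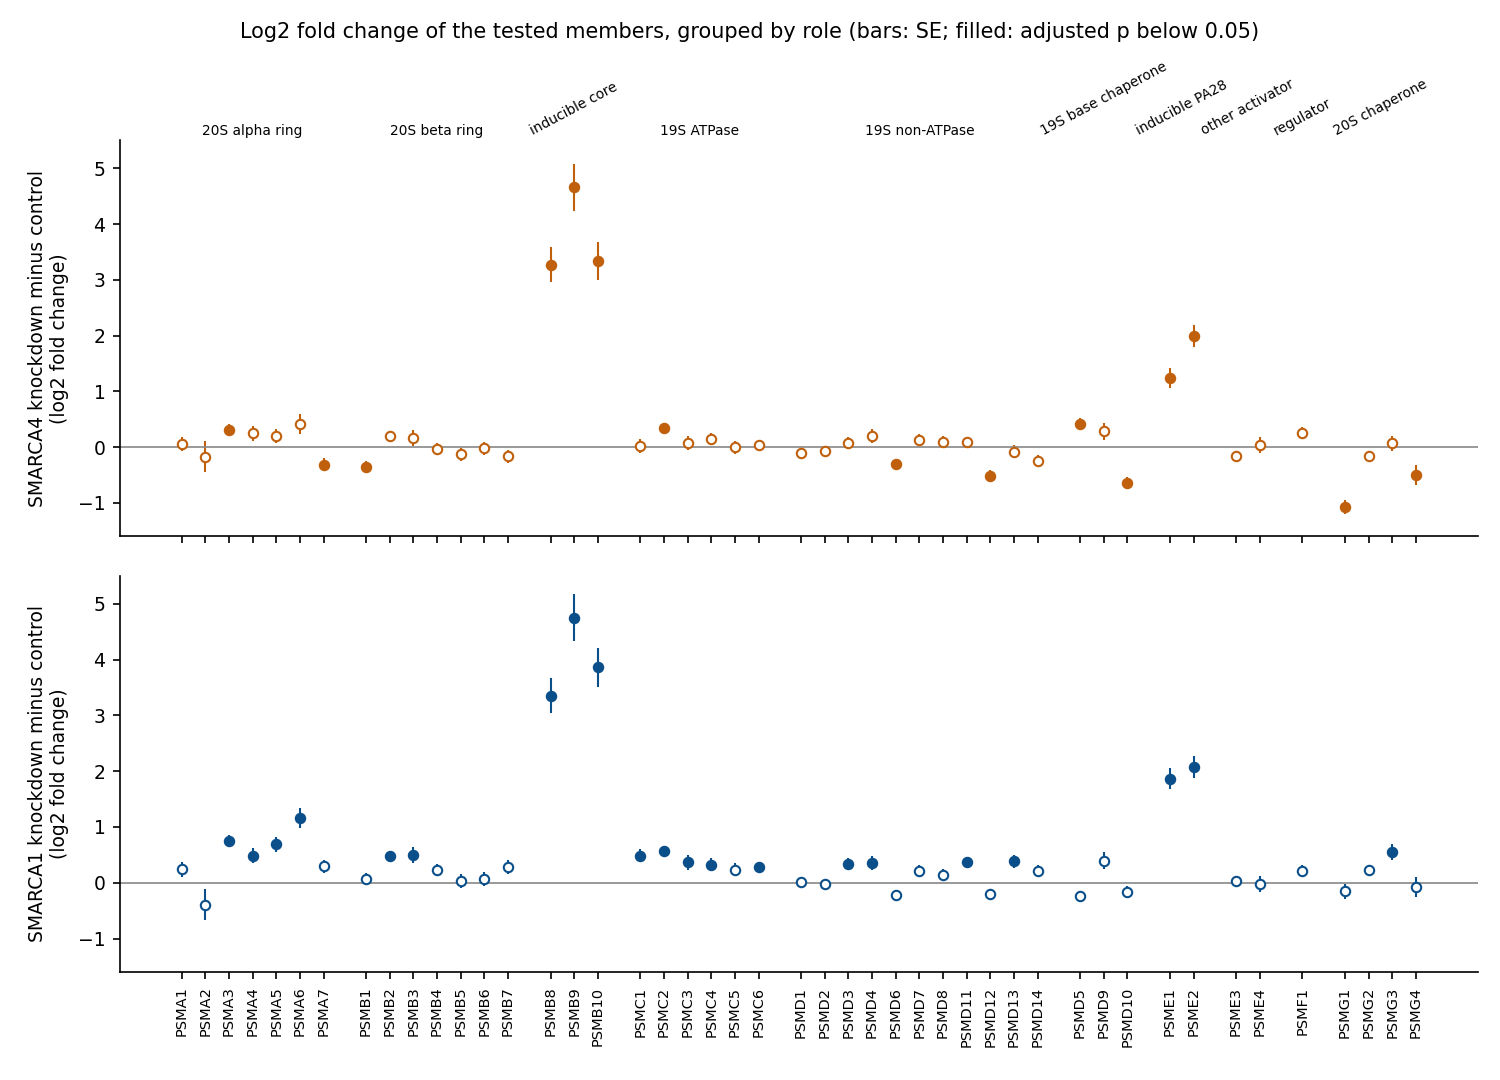
Log2 fold change against control of the 46 tested members in the SMARCA4 knockdown (top) and the SMARCA1 knockdown (bottom), grouped by role; bars are standard errors and filled points have an adjusted p below 0.05. The 5 inducible genes stand between 1.24 and 4.75, whereas the 31 constitutive subunits lie between -0.51 and 0.42 in the top panel and between -0.39 and 1.16 in the bottom panel.

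By role, the alpha ring, which forms the gates of the core, had 1 subunit higher and 1 lower of 7 in the SMARCA4 knockdown and 4 higher in the SMARCA1 knockdown. PSMA6 showed the largest increase among constitutive subunits. It was at 3.01 and 3.75 CPM in control, 4.71, 3.65, 5.29 and 4.53 CPM in the SMARCA4 knockdown, and 6.91, 6.83, 9.09 and 7.64 CPM in the SMARCA1 knockdown. The SMARCA1-knockdown libraries lay above all others, with a log2 fold change of 1.16 ± 0.178 (SE, adjusted p = 0.00065), whereas SMARCA4-knockdown and control libraries overlapped (0.42, adjusted p = 0.080, called without SMARCA4 siRNA A replicate 2). PSMA6 was counted at only 72 to 284 reads per library, and 14.1% of its exon bases are shared with another gene on the same strand.

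PSMA3 was at 80.9 and 72.9 CPM in control, 102, 83.9, 100 and 94.5 CPM in the SMARCA4 knockdown, and 125, 117, 142 and 137 CPM in the SMARCA1 knockdown. The 3 groups did not overlap. The log2 fold change was 0.31 in the SMARCA4 knockdown (adjusted p = 0.038), a call lost in 7 of 10 fits that left out a library, and 0.76 in the SMARCA1 knockdown (adjusted p = 0.00046), which held in all of them. PSMA2, with 20 to 51 counts per library, was at 1.55 and 1.56 CPM in control, 1.78, 1.48, 1.02 and 1.33 CPM in the SMARCA4 knockdown, and 0.723, 1.42, 1.47 and 1.17 CPM in the SMARCA1 knockdown. Its log2 fold changes were -0.17 and -0.39, and neither passed the test. PSMA5 rose by 0.69 and PSMA4 by 0.49 in the SMARCA1 knockdown, whereas PSMA7, the most abundant alpha subunit in control, fell by 0.31 in the SMARCA4 knockdown (adjusted p = 0.049), a call lost in most of the alternative fits.

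In the beta ring, PSMB1 was lower in the SMARCA4 knockdown (log2 -0.36, adjusted p = 0.017), and PSMB2 and PSMB3 were higher in the SMARCA1 knockdown with 0.48 (adjusted p = 0.0023) and 0.49 (adjusted p = 0.018). PSMB4 and the 3 constitutive active-site subunits did not pass the test in either knockdown. Of the 6 ATPases, which unfold substrates and thread them into the core, PSMC2 was higher in both knockdowns, with 0.34 (adjusted p = 0.026) and 0.56 (adjusted p = 0.0022). PSMC1, PSMC3, PSMC4 and PSMC6 were higher in the SMARCA1 knockdown, with log2 fold changes of 0.29 to 0.49, and did not pass in the SMARCA4 knockdown. The call of PSMC3 (adjusted p = 0.043) held in 7 of 17 alternative fits. Those of PSMC4 and PSMC6 in the SMARCA1 knockdown and of PSMC2 in the SMARCA4 knockdown each held in 13. The difference between knockdowns passed the test for PSMC1 and PSMC6 (adjusted p = 0.0051 and 0.018) and did not for PSMC3 and PSMC4 (adjusted p = 0.053 and 0.13). For PSMC1, 76.1% of the exon bases overlap NRDE2 on the opposite strand, and whether the counting used strand is not given in the sources used here.

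The 11 other subunits of the regulatory particle include ubiquitin receptors and the deubiquitinase PSMD14. Of these, PSMD6 and PSMD12 were lower in the SMARCA4 knockdown, and PSMD3, PSMD4, PSMD11 and PSMD13 were higher in the SMARCA1 knockdown. The calls of PSMD3, PSMD4 and PSMD13 each held in 13 of 17 alternative fits, that of PSMD6 in 12 and that of PSMD11 in 16. PSMD12, a lid subunit, was at 115 and 100 CPM in control, 72.3, 68.8, 80.1 and 80.5 CPM in the SMARCA4 knockdown, and 86.1, 99.0, 93.8 and 93.5 CPM in the SMARCA1 knockdown. It fell by 0.51 on the log2 scale in the SMARCA4 knockdown (adjusted p = 0.0018), where all 4 libraries lay below both controls. In the SMARCA1 knockdown the value was -0.21 and did not pass the test (adjusted p = 0.10), but it was called as lower in 1 of 17 alternative fits.

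Library by library, the median log2 of the 31 constitutive subunits over their control mean was 0.05, -0.04, 0.11 and -0.07 in the SMARCA4-knockdown libraries and 0.45, 0.19, 0.29 and 0.22 in the SMARCA1-knockdown libraries, the first pair of each being siRNA A. Thus 12 to 19 of the 31 lay above the control mean in the SMARCA4-knockdown libraries and 23 to 28 in the SMARCA1-knockdown libraries, with no overlap between these ranges. In the control libraries 17 and 14 lay above it. The same share over all genes was not counted by library. Their median log2 fold change was 0.002 in the SMARCA4 and -0.004 in the SMARCA1 knockdown. SMARCA1 siRNA A replicate 1 gave the highest median, and the 2 libraries of that siRNA differed more from each other than those of any other group, with a chi-square per gene of 60.6. It was 42.9 for SMARCA4 siRNA A, 22.6 for SMARCA4 siRNA B, 6.39 for control and 3.80 for SMARCA1 siRNA C. Refits without SMARCA1 siRNA A replicate 1 are part of the ranges of called members given below.

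**Figure D4:**
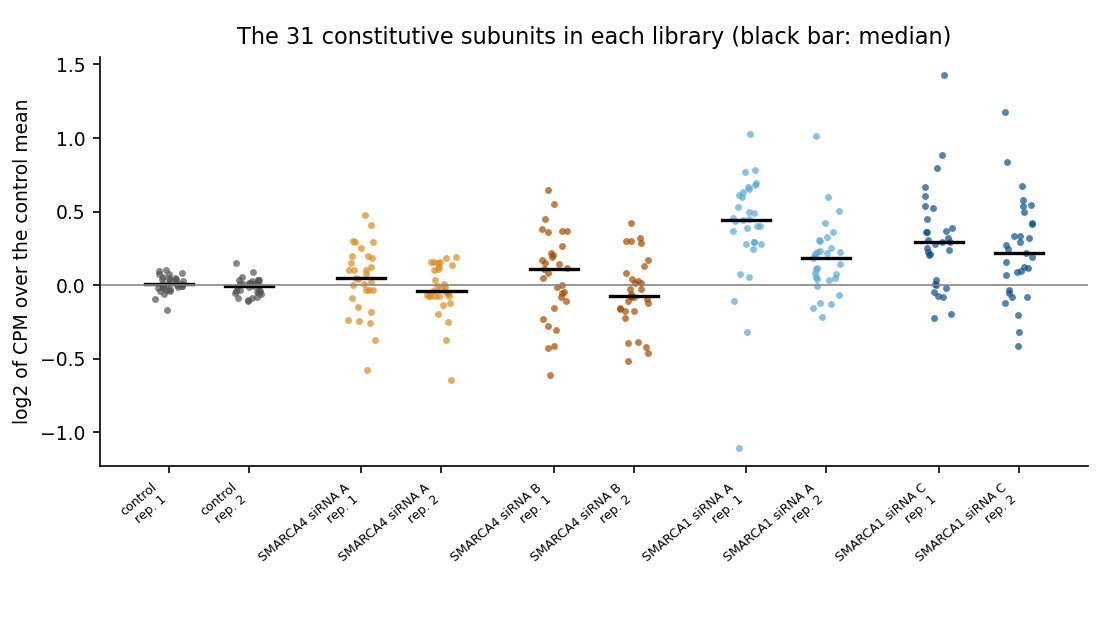
Log2 of CPM over the control mean for each of the 31 constitutive subunits (points) in each of the 10 libraries, with the median as a black bar. Medians lie between -0.07 and 0.11 in the SMARCA4-knockdown libraries and between 0.19 and 0.45 in the SMARCA1-knockdown libraries.

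Among the assembly chaperones of the core, PSMG1 fell in the SMARCA4 knockdown. PSMG1 pairs with PSMG2 to guide formation of the alpha ring. It was at 25.0 and 24.5 CPM in control, 14.1, 10.7, 12.1 and 10.4 CPM in the SMARCA4 knockdown, and 21.9, 22.5, 23.2 and 21.3 CPM in the SMARCA1 knockdown. The SMARCA4-knockdown libraries lay below all others, with a log2 fold change of -1.07 ± 0.126 (SE, adjusted p = 0.00013), whereas in the SMARCA1 knockdown the value was -0.16 (adjusted p = 0.34). Its partner PSMG2 did not pass the test in either knockdown (-0.17 and 0.22). PSMG3, which pairs with PSMG4, rose by 0.55 in the SMARCA1 knockdown (adjusted p = 0.0096).

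The chaperones of the regulatory particle's base moved in opposite directions in the SMARCA4 knockdown. PSMD10, known as gankyrin, was at 31.8 and 27.4 CPM in control, 21.6, 23.0, 16.5 and 15.8 CPM in the SMARCA4 knockdown, and 28.5, 29.7, 25.8 and 22.4 CPM in the SMARCA1 knockdown; its log2 fold changes were -0.64 (adjusted p = 0.00096) and -0.16 (adjusted p = 0.24). PSMD5 was at 39.3 and 33.4 CPM in control, 48.7, 44.6, 51.4 and 48.9 CPM in the SMARCA4 knockdown, and 25.1, 27.5, 34.5 and 36.9 CPM in the SMARCA1 knockdown. All SMARCA4-knockdown libraries were above both controls (0.41, adjusted p = 0.010), while SMARCA1-knockdown and control libraries overlapped (-0.25, adjusted p = 0.077). The first of these values was not called without control replicate 2, and the second was called as lower without SMARCA1 siRNA A replicate 2. The third, PSMD9, had 0.28 and 0.40 and passed in neither. PSME3, PSME4, which encodes the activator PA200, and PSMF1, which encodes the inhibitor PI31, also passed in neither.

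The knockdowns were also compared directly. Relative to the SMARCA1 knockdown, 21 members were lower in the SMARCA4 knockdown and 1 was higher, where 19.1% of all tested genes were called lower and 16.3% higher. The lower ones were 15 of the 31 constitutive subunits (median log2 difference -0.26, against -0.013 over all genes), all 4 assembly chaperones, PSMD10 and PSME1, and the higher one was PSMD5 (0.66 ± 0.086 SE, adjusted p = 0.00044). Among the lower ones, the calls of PSMG4 and PSMB4 each held in only 5 of 17 alternative fits, and that of PSMD3 in 6. PSMG4 was not called by DESeq2. No constitutive subunit was higher, including at an unadjusted p below 0.05, and DESeq2 called PSMD5 as the 1 higher member too. The largest differences among the lower members were those of PSMG1 (-0.91, adjusted p = 0.00028), PSMA6 (-0.74, adjusted p = 0.0025), PSME1 (-0.63, adjusted p = 0.0061) and PSMA7 (-0.60, adjusted p = 0.0012). PSMB7 was the 1 active-site subunit that differed (-0.44, adjusted p = 0.0063). The count was 34 without SMARCA1 siRNA A replicate 2.

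For the inducible core subunits the difference between knockdowns was not called. It was -0.08 for PSMB8 (95% interval -0.55 to 0.39), -0.09 for PSMB9 (-0.64 to 0.46) and -0.52 for PSMB10 (-0.98 to -0.07, adjusted p = 0.071), and for PSME2 it was -0.09 (-0.41 to 0.23). PSME1 was thus the 1 inducible gene of 5 that differed between SMARCA4 and SMARCA1 knockdown by this test, with libraries that overlapped. PSMB9 was called as lower without SMARCA4 siRNA A replicate 1 (-0.50), and PSMB10 in 5 of 17 alternative fits. The intervals of PSMB9 and PSMB10 hold the difference seen for PSME1, and those of PSMB8 and PSME2 end short of it.

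With each siRNA taken alone against control, 11 members were called with SMARCA4 siRNA A (background 33.2%), 15 with SMARCA4 siRNA B (45.0%), 20 with SMARCA1 siRNA A (34.8%) and 17 with SMARCA1 siRNA C (45.3%). The 5 inducible genes were higher with all 4. Called with both siRNAs of SMARCA4 were 6 members higher, the inducible 5 and PSMD5, against 14.8% of all genes, and 4 lower, namely PSMB1, PSMD10, PSMD12 and PSMG1, against 12.9%. Called with both siRNAs of SMARCA1 were 13 members higher against 16.5% of all genes, namely the inducible 5, PSMA3, PSMA5, PSMA6, PSMB2, PSMC1, PSMC2, PSMD11 and PSMG3. None was lower with both by edgeR or DESeq2, against 13.5% of all genes, nor at an unadjusted p below 0.05 with both.

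The siRNAs of each target were compared with each other, and no difference in a member passed the test. Levels with SMARCA4 siRNA B were above those with siRNA A for all 5 inducible genes. The log2 differences were 1.05 for PSMB8 (adjusted p = 0.067), 1.13 for PSMB9 (adjusted p = 0.083), 0.88 for PSMB10 (adjusted p = 0.098), 0.62 for PSME1 (adjusted p = 0.079) and 0.70 for PSME2 (adjusted p = 0.070). Libraries of these siRNAs did not overlap for 24 of the 46 tested members, the 5 inducible genes among them. That share was not counted over all genes. None of the 46 members was called by edgeR, where 6.20% of all genes were; 8 had an unadjusted p below 0.05, DESeq2 called 5, and leaving out 1 library gave 0 to 8. For SMARCA1 siRNA C against siRNA A the log2 difference was 0.75 for PSMB8 (adjusted p = 0.25) and 0.89 for PSMB9 (adjusted p = 0.24). Here too no member was called, by edgeR or DESeq2, 5 had an unadjusted p below 0.05, and 0.0118% of all genes were called. PSMD5 was at 26.3 CPM on average with SMARCA1 siRNA A and 35.7 CPM with siRNA C (log2 difference 0.44, adjusted p = 0.15).

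The genes that work with the inducible subunits were taken from a list of 15 genes of MHC class I antigen processing. In each knockdown 12 of the 15 were higher and 1, CANX, a lectin chaperone of the endoplasmic reticulum, was lower. Among all genes, 22.8% were called higher and 22.3% lower in the SMARCA4 knockdown, and 23.8% and 23.0% in the SMARCA1 knockdown. The median log2 fold change of the 15 was 2.38 in the SMARCA4 and 2.69 in the SMARCA1 knockdown. TAP1 rose by 4.47 and 4.22 (adjusted p = 9e-06 and 1.5e-05), B2M, the light chain of MHC class I, by 2.94 and 3.29, and the trimming peptidase ERAP1 by 1.61 and 1.71. CALR and PDIA3, general folding factors of the endoplasmic reticulum, did not pass the test in either knockdown.

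Of the listed factors known to induce the immunoproteasome, NLRC5, IRF1, IRF9 and STAT2 were higher in both knockdowns. NLRC5, the transactivator of MHC class I genes, was at 1.55 and 1.45 CPM in control and 41.3 to 170 CPM in the knockdown libraries. IRF1, which binds the ISRE, was at 13.6 and 13.6 CPM in control and 65.0 to 191 CPM in the knockdowns. Between the knockdowns, STAT2 was higher with SMARCA4 siRNAs, by 1.07 (adjusted p = 0.00042), whereas IRF1, IRF9 and NLRC5 were not called (-0.08, 0.38 and 0.44).

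A list of 17 partners of the proteasome, comprising assembly factors, ubiquitin receptors, shuttles and associated enzymes, had none higher and 6 lower in the SMARCA4 knockdown, and 2 higher and 5 lower in the SMARCA1 knockdown. Over all genes 22.8% were called higher and 22.3% lower in the former and 23.8% and 23.0% in the latter. Whether the counts of partners differ from these shares was not tested. UCHL5, a deubiquitinase bound to the regulatory particle, was lower in both (-0.66, adjusted p = 0.00054, and -0.41, adjusted p = 0.0070), as was the ubiquitin ligase UBE3A (-0.39 and -0.51). PAAF1, which binds the ATPases during assembly, was lower in the SMARCA4 knockdown (-0.53, adjusted p = 0.0053) and had 0.09 in the SMARCA1 knockdown, and the difference between knockdowns passed the test (-0.62, adjusted p = 0.0013). POMP, which assists maturation of the core, and SEM1, the smallest subunit of the regulatory particle, passed against control in neither knockdown but were lower in the SMARCA4 than in the SMARCA1 knockdown (-0.43, adjusted p = 0.0055, and -0.57, adjusted p = 0.0032).

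Of 8 genes around NFE2L1, the transcription factor that raises proteasome genes when degradation is impaired, 4 were higher and 1 lower in the SMARCA4 knockdown and 5 were higher and 1 lower in the SMARCA1 knockdown. The shares over all genes were 22.8% higher and 22.3% lower in the former and 23.8% and 23.0% in the latter. NFE2L1 rose by 0.62 and 0.58 (adjusted p = 0.0010 and 0.0016), NFE2L2 by 1.36 and 1.39, and DDI2, the protease that activates NFE2L1, was lower in both (-0.67 and -0.90). NFE2L1 did not differ between the knockdowns by the test (0.04, adjusted p = 0.73). Of the ubiquitin genes listed, RPS27A, which encodes ubiquitin fused to a ribosomal protein, was lower in both knockdowns (-1.28 and -0.72).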

How the data were processed

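The authors prepared libraries from poly(A)-selected RNA with a directional kit, aligned reads to hg38 with HISAT2 2.1.0 and deposited gene-level counts from featureCounts 1.5.2, per the labels; these counts are raw and come with exon lengths. The GENCODE release and the strand setting of the counting are not given in the sources used here. Counts were tested in edgeR 4.0.16 (R 4.3.3; TMM scaling, filterByExpr with a minimum count of 10 and a total of 15, glmQLFit and glmQLFTest, two-sided) in 1 fit of all 10 libraries as 5 groups, with Benjamini-Hochberg adjustment over 16899 genes. A knockdown is the mean of its 2 siRNA groups. The pipeline was tested on simulated data. Alternatives were DESeq2 1.42.0, other scalings and filters, a replicate block, a fit of the compared groups alone, and leaving out each library. Promoters came from RefSeq (GRCh38.p14), and figures were drawn with matplotlib 3.10.9.

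Members and gene lists were chosen with earlier results of these data known. Described in full were the 5 inducible genes, PSMB5, PSMB6 and PSMB7, and, of the other members, the 2 highest and 2 lowest log2 fold changes in each comparison of knockdowns or knockdown and control; others, PSMD12 among them, were named as called members of their role or, with PSMB4, PSMG4 and TAP1, for a promoter match seen afterwards. No replicate pair agreed within sampling noise. Of the 42 pseudogenes named after members, 26 had no counts, and their sum was 28 to 59 counts per library against 115901 to 210946 for the members. Single values of some listed genes are not reported here.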

Additional observations from a re-analysis of the deposited data

How the results depend on the processing

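The calls of the 5 inducible genes against control held, in direction and side of the threshold, in each of the 17 alternative fits of both knockdowns, and so did those of PSMG1, PSMD10 and PSMD12 in the SMARCA4 knockdown and PSMA3, PSMA5, PSMA6, PSMB2 and PSMC2 in the SMARCA1 knockdown. Members called for siRNA B against siRNA A of SMARCA4 numbered 0 in the report's fit and 5 with DESeq2, with no filter on low counts and with a replicate block; for siRNA C against siRNA A of SMARCA1 they numbered 0, and 2 with no filter. Leaving out 1 library gave 9 to 19 called members for the SMARCA4 knockdown (9 without either control), 10 to 32 for the SMARCA1 knockdown, 15 to 34 for SMARCA4 against SMARCA1 knockdown, 0 to 8 between the SMARCA4 siRNAs (8 without either SMARCA1 siRNA A library, 5 without SMARCA4 siRNA A replicate 1) and 0 to 6 between the SMARCA1 siRNAs (6 without SMARCA1 siRNA A replicate 2). For single siRNAs against control the ranges were 7 to 12 for SMARCA4 siRNA A (7 without its replicate 1 or control replicate 1), 8 to 21 for SMARCA4 siRNA B (8 without its replicate 1, 9 without either control), 8 to 34 for SMARCA1 siRNA A (34 without its replicate 2, 12 without its replicate 1, 9 and 8 without control replicate 1 and 2) and 10 to 26 for SMARCA1 siRNA C (26 without either SMARCA1 siRNA A library, 10 without its replicate 1 or control replicate 2). The causes were not tested. The log2 gain in the inducible to constitutive ratio stayed within 3.43 to 4.06 for the SMARCA4 and 3.44 to 3.87 for the SMARCA1 knockdown. Values that changed sign had not been called, and without 1 library ranged from -0.071 to 0.039 for PSMB6 in the SMARCA4 knockdown, from -0.089 to 0.133 for PSMB5 and -0.054 to 0.169 for PSMB6 in the SMARCA1 knockdown, and, between knockdowns, from -0.409 to 0.142 for PSMB8, -0.497 to 0.172 for PSMB9, -0.274 to 0.057 for PSME2 and -0.194 to 0.036 for PSMB6. Same-numbered libraries of 3 of 10 group pairs had deviations correlated above 0.1 (range -0.1 to 0.36). These were the pairs among SMARCA4 siRNA A, SMARCA4 siRNA B and SMARCA1 siRNA A (0.362, 0.266 and 0.125). For all 5 inducible genes, replicate 1 was above replicate 2 with every siRNA and below it in control. Whether the replicate numbers pair the libraries cannot be told from these values. The replicate block changed no other count by more than 1.5 times. With 2 control libraries, changes of the size seen in constitutive subunits are at the limit of what these data resolve.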

Other observations

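PSMB8-AS1, annotated opposite PSMB8 and overlapping PSMB9 on its own strand, had 0 and 1 counts in control and 8 to 45 counts in the knockdown libraries, against 274 to 5988 counts for PSMB8. How reads of these overlapping genes were divided was not tested.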
